A study of Mus musculus with 2 samples.

Results

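The chemokine receptor genes Ccr1, Ccr8, Ccr9, Cxcr4 and Cxcr6, together with Cxcl16, the gene of the ligand of CXCR6, were followed across the immune cells of MC38 tumours. These 6 genes were chosen by name among the 33696 mouse genes of the count matrix, and each matched 1 feature: ENSMUSG00000025804 for Ccr1, ENSMUSG00000042262 for Ccr8, ENSMUSG00000029530 for Ccr9, ENSMUSG00000045382 for Cxcr4, ENSMUSG00000048521 for Cxcr6 and ENSMUSG00000018920 for Cxcl16. MC38 is a mouse colon carcinoma line, implanted at 2000000 cells into mice with human Fc gamma receptors. Treated animals received 2 injections of 100 µg of an anti-mouse GITR antibody with a human IgG1 Fc, 3 days apart, and CD45+ cells were sorted 4 days after treatment. All groups share the human Fc receptor background and the tumour line, and the age, sex and strain of the mice are not given in the labels used here.

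A single 10x Genomics 3' library pooled 6 mice, each marked by a hashtag antibody. There were 2 mice without antibody (called Untreated in the cell table and given PBS per the design text), 2 given the N297A antibody, 1 given the GA-aFuc antibody and 1 given the GITR/Syn GA-aFuc antibody. N297A is a substitution known to remove the Fc glycan and most Fc receptor binding. The labels do not spell out the other names. The mean of these last 2 antibodies is called Fc-enhanced below, after the series title. The design text names 3 mice per treatment, so this library holds part of the study. The mice held 1379 to 1519 cells each, with a median of 11259 to 12940 mouse UMIs (molecules counted once) per cell. Of 8716 cells, the authors' annotation named 907 as CD8 T cells, 97 as CD4 T cells, 74 as regulatory T cells (Tregs) and 723 as NK cells. Among myeloid cells it named 4104 macrophages and 2486 monocytes, and among dendritic cells 200 cDC2, 57 mregDC (mature dendritic cells), 47 cDC1 and 21 plasmacytoid cells (pDC). The names fitted their markers in most types, with C1qa highest in macrophages, Ncr1 in NK cells, Foxp3 in Tregs, Xcr1 in cDC1, Fscn1 in mregDC and Siglech in pDC. Ly6c2 and Plac8, monocyte markers, were highest in pDC. Among cDC2 markers, Cd209a and H2-Ab1 were highest in cDC2. Clec10a was highest in pDC (457 units of CPM, defined below, against 57.5 in cDC2) and Cd1d1 in mregDC (45.7 against 19.7). The gamma-delta T cell gene Trdc stood at 312 CPM in CD4-labelled cluster 35 and at 0 in cluster 59.

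Chemokine receptors are G protein-coupled receptors that steer leukocytes along gradients of small secreted proteins and, in some tissues, hold them in place. CCR1 binds several inflammatory CC chemokines and is best known on myeloid cells. CCR8, the receptor of CCL1 and CCL8, is known as a receptor of tumour Tregs. CCR9 guides cells toward CCL25 in thymus and small intestine and is carried by pDC. CXCR4, the receptor of CXCL12, retains cells in bone marrow and is found on most leukocytes. CXCR6 marks activated and tissue-resident T cells, and its ligand CXCL16 is made as a membrane protein that the proteases ADAM10 and ADAM17 can release.

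Of these genes, Ccr9, Cxcr6 and Ccr1 lie close together on chromosome 9. In RefSeq's gene order Ccr9 is followed by Fyco1, Cxcr6, Xcr1 and Ccr1 among protein-coding genes. Ccr8 lies elsewhere on chromosome 9, Cxcr4 on chromosome 1 and Cxcl16 on chromosome 11. RefSeq promoters, 250 bases before to 50 bases after a gene's start on build GRCm38.p6, were at hand for 5 of the 6 genes. That build is older than the GRCm39 reference of the counts. The 3 neighbours are shown because each was read in other cells: Ccr9 in pDC, Cxcr6 in T cells and Ccr1 in myeloid cells. Capitals mark matches on either strand to the letters TGTGGT (a RUNX core), GAGGAA (a PU.1 core) or CAGGTG (an E-box), and no matches overlapped. The Ccr1 window is chr9:123968643-123968942 on the minus strand, the Cxcr6 window chr9:123806227-123806526 on the plus strand and the Ccr9 window chr9:123766961-123767260 on the plus strand.
Ccr1: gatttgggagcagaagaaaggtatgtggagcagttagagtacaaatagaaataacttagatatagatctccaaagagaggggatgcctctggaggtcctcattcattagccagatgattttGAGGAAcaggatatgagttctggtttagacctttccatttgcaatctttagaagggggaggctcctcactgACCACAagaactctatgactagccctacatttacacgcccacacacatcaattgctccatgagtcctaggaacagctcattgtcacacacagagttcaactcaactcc
Cxcr6: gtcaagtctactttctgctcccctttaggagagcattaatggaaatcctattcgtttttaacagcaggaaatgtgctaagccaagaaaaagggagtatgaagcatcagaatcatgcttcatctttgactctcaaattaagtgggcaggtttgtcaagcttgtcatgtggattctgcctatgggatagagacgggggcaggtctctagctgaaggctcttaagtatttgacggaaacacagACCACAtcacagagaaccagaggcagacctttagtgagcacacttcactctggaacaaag
Ccr9: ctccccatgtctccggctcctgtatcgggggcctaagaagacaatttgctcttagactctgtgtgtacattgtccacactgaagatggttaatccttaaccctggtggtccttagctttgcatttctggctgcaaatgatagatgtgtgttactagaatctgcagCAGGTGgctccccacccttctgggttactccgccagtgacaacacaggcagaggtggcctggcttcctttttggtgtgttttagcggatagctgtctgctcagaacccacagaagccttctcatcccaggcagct
The Ccr1 window held 1 PU.1 and 1 RUNX match, the Cxcr6 window 1 RUNX match and the Ccr9 window 1 E-box match. Among 32851 RefSeq promoters of the same length, 16.8% held the RUNX letters, 28.3% the PU.1 letters and 20.2% the E-box letters. None of the 3 motifs was found in the Ccr8 or the Cxcr4 window. These matches describe letters and name no factor.

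Levels are given as CPM, the UMIs of a gene in all cells of a type and mouse, divided by their mouse UMIs and scaled to 1000000, as mean ± SD over 6 mice. They are compared between cells and not between genes. Barcodes with at most 100 UMIs served as a measure of free RNA in the droplets (7554660 UMIs). In them Cxcl16 stood at 550 CPM, Ccr1 at 120, Cxcr4 at 70.9, Cxcr6 at 26.3, Ccr9 at 2.38 and Ccr8 at 0.265. These values describe the make-up of free RNA, not how much of it a cell took up. Macrophages held Cxcr6 at 0.80 CPM and pDC held Ccr1 at 0 CPM, both far below free RNA. A level below free RNA can thus still lie above background, and the part of free RNA in a level was not tested.

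**Figure D1:**
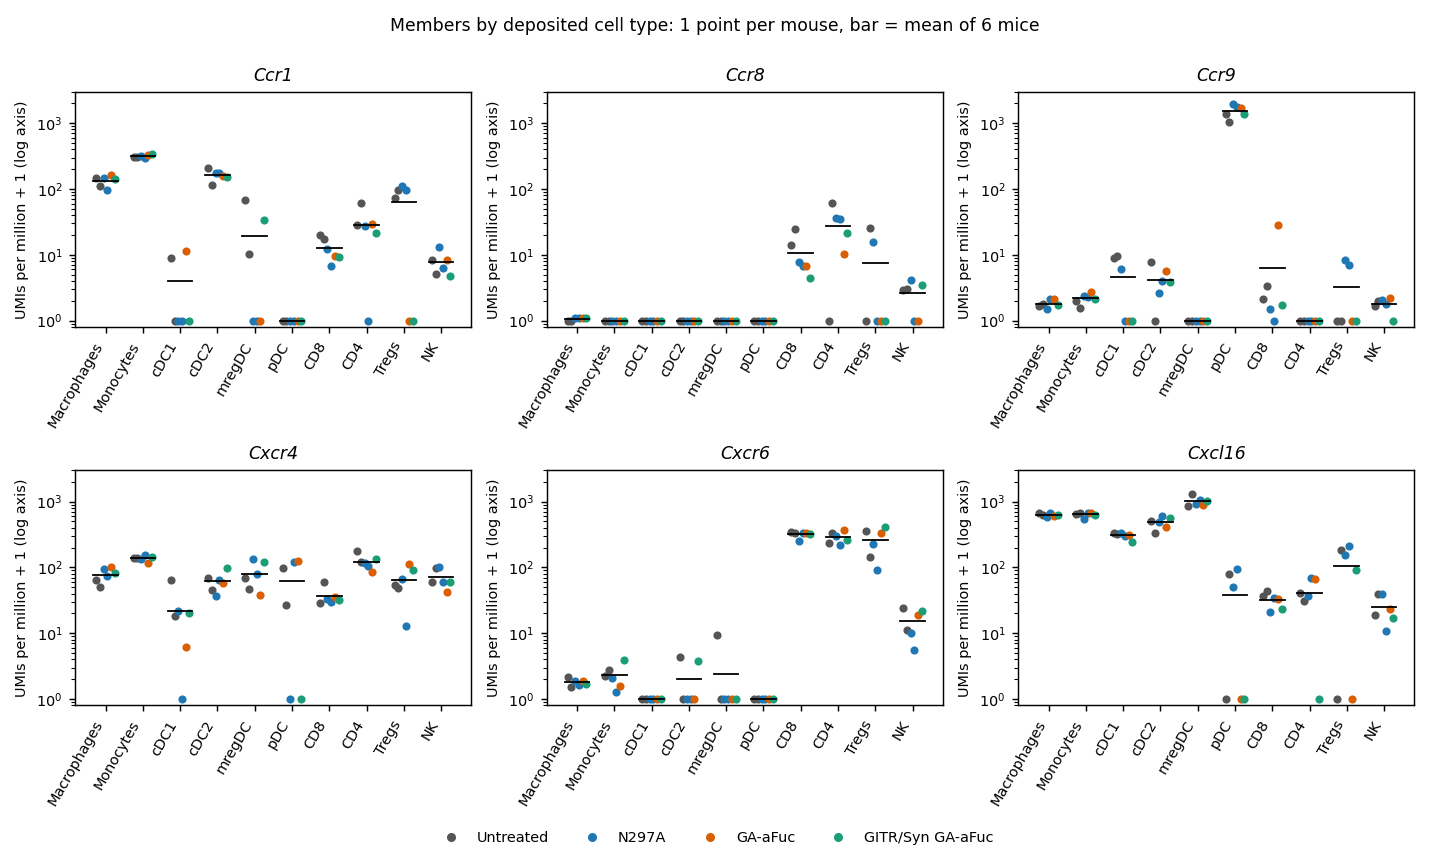
Level of each gene (CPM plus 1, log axis) in each deposited cell type. Each point is 1 mouse, coloured by treatment, and the bar is the mean of 6 mice. On average Ccr9 stands at 1528 CPM in pDC, while Cxcr6 lies between 260 and 320 CPM in the 3 T cell types and at 14.2 CPM in NK cells. By mouse, Cxcr6 in Tregs runs from 90.1 to 405 CPM.

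Cxcr6 was a T cell gene in these tumours. Its level was 320 ± 34.7 CPM (SD, n = 6) in CD8 T cells, 285 ± 58.4 CPM in CD4 T cells and 260 ± 127 CPM in Tregs, against 14.2 ± 7.31 CPM in NK cells. In the other 6 types its mean level was at most 1.40 CPM. CD8 T cells held 84.5% of all 3230 Cxcr6 UMIs. By mouse the CD8 level was 348 and 329 CPM in the Untreated mice, 251 and 334 in the N297A mice, 333 in the GA-aFuc mouse and 324 in the GITR/Syn GA-aFuc mouse. The highest NK value was 22.9 CPM, and the 2 types did not overlap.

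Within mice, the Cxcr6 level in CD8 T cells lay above that in NK cells by 4.43 on the log2 scale (SE 0.15, adjusted p = 5.42e-24, 6 of 6 mice). Against macrophages the log2 difference was 8.54 (SE 0.15, adjusted p = 4.91e-34). Adjusted p-values here and below come from edgeR's quasi-likelihood test on the summed counts, with Benjamini-Hochberg adjustment over all genes of a comparison and a threshold of 0.05. These comparisons of cell types called many genes, 30.6% of those tested for CD8 T cells against NK cells and 72.8% for CD8 T cells against macrophages, so a call alone sets no gene apart. CD4 T cells did not differ from CD8 T cells in Cxcr6 beyond the test's threshold (log2 difference -0.23, SE 0.17, adjusted p = 0.445), in a comparison that called 12.7% of genes. Without the cell with the most Cxcr6 UMIs in each sum it passed the threshold, at a log2 difference of -0.57 (adjusted p = 0.0389). By mouse that cell held 14.7 to 42.1% of Cxcr6 UMIs in CD4 T cells and 2.85 to 6.76% in CD8 T cells. This setting thus lowers the smaller type by construction, and its call says nothing about a difference between the types.

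Thinning each cell to 2000 UMIs gave shares of cells at equal depth. Cxcr6 was then seen in 42.7% of 907 CD8 T cells (95% exact binomial interval 39.4 to 46.0%), 42.1% of 95 CD4 T cells (32.0 to 52.7%) and 24.7% of 73 Tregs (15.3 to 36.1%). In NK cells the share was 1.80% (0.961 to 3.06%) and in macrophages, which should lack it, 0.196% (0.0846 to 0.385%). Without thinning the CD8 share was 83.0%, at a median of 8158 UMIs per cell, and the macrophage share 1.07%, at 15222. Intervals cover counting error only.

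Over 33 sums, 1 for each mouse and type that had 20 cells or more, the genes most like Cxcr6 were Cd3d (Pearson r = 0.97), Cd3g (0.97) and Lat (0.96), a T cell receptor adaptor, among 10047 genes. These sums share a library and their cell types, and r is a description.

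CD8 T cells and NK cells each split into clusters that differed in Cxcr6 and Cxcr4. The clusters are those of the deposited table, and since clusters group cells by expression their levels are given without a test. In CD8 cluster 23 (151 cells), Cxcr4 stood at 132 CPM and Cxcr6 at 175 CPM, the highest and the lowest of the 5 CD8 clusters. In CD8 cluster 33 (202 cells), Cxcr4 stood at 6.93 CPM and Cxcr6 at 354 CPM. Cluster 44 had the highest Cxcr6 (416 CPM) with Cxcr4 at 48.7 CPM, 222 CPM in the second Untreated mouse (9 cells) and 6.78 to 75.1 CPM in the others, while cluster 16 had 387 and 19.3 CPM and cluster 38 had 210 and 31.7 CPM. By mouse, Cxcr4 ranged from 82.1 to 198 CPM in cluster 23 and from 2.62 to 13.8 CPM in cluster 33, and these ranges did not overlap. Cluster 23 also held the most S1pr1, the receptor that lets T cells leave tissue, at 96.6 CPM against at most 8.86 CPM in the other 4 CD8 clusters.

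Among NK cells Cxcr4 was high in clusters 19 and 26 and Cxcr6 in cluster 48. Cxcr4 stood at 151 CPM in cluster 19 and 199 CPM in cluster 26, where 1 UMI of Cxcr6 was counted in each. Cluster 48 (95 cells) held Cxcr6 at 54.1 CPM and Cxcr4 at 5.57 CPM, with 68 of the 106 NK Cxcr6 UMIs. Its Cxcr6 level by mouse was 25.8 to 87.6 CPM. Cluster 58 (49 cells) held Cxcr6 at 21.9 CPM, beside 26.3 CPM in free RNA and 0.80 CPM in macrophages, and Cxcr4 at 26.7 CPM. Eomes, a transcription factor of conventional NK cells, stood at 17.5 CPM in cluster 48 and 133 to 258 CPM in clusters 19, 20 and 26, and Itga1, an integrin of tissue-resident lymphocytes, at 183 CPM against 36.5 to 145 CPM. Cd3e, a T cell gene, stood at 31.8 CPM in cluster 48 and 1.22 to 2.94 CPM in those clusters. Over all NK-labelled cells the gamma-delta T cell genes Trdc and Trdv4 stood at 42.7 and 31.3 CPM. The part of T cells in the Cxcr6 level of clusters 48 and 58 was not tested.

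**Figure D2:**
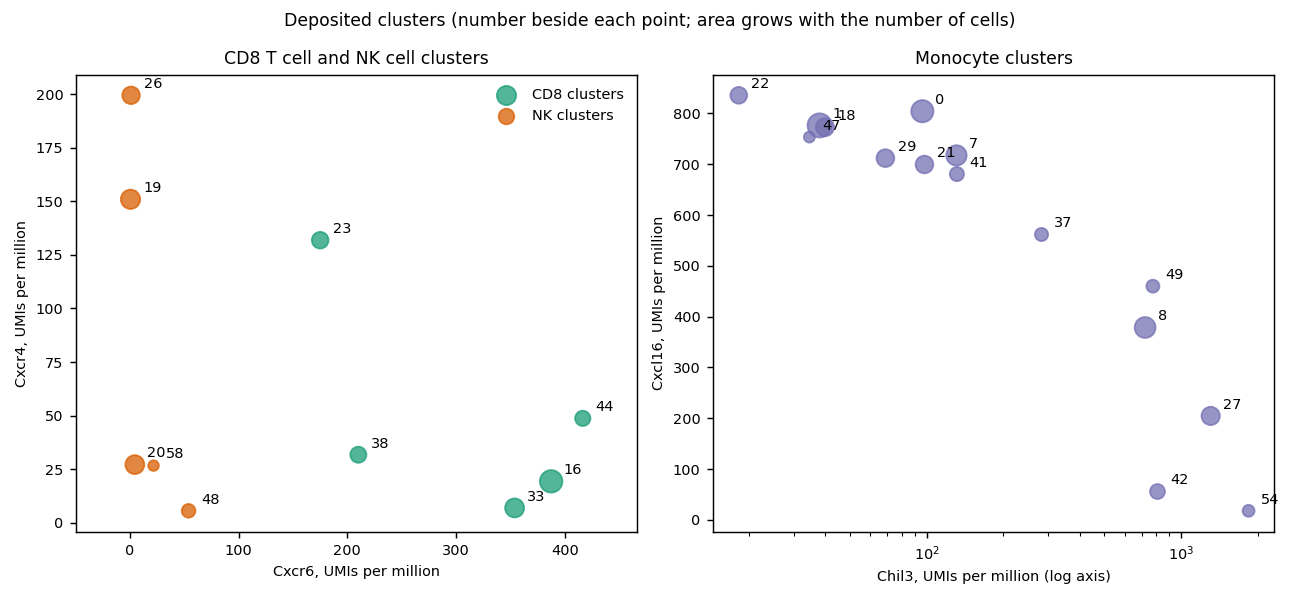
Left, Cxcr6 (x axis) and Cxcr4 (y axis) in CPM for each deposited CD8 T cell and NK cell cluster, with CD8 cluster 23 (132 CPM of Cxcr4) above the other CD8 clusters. Right, Chil3 (x axis, log) and Cxcl16 (y axis) in CPM for each monocyte cluster, with clusters 54 and 42 lowest in Cxcl16 at 17.95 and 55.9 CPM. Point area grows with the number of cells.

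Cxcl16, the ligand gene, was read in myeloid cells. Its level was 1005 ± 161 CPM in mregDC, 641 ± 47.3 CPM in monocytes, 631 ± 33.9 CPM in macrophages, 484 ± 95.3 CPM in cDC2 and 309 ± 34.7 CPM in cDC1. Macrophages held 68.8% of all 58928 Cxcl16 UMIs and monocytes 27.0%. In mregDC the 6 mice stood at 851 to 1294 CPM, above every monocyte value (553 to 677 CPM). Lymphocytes and pDC stood at 24.0 to 106 CPM on average, below the 550 CPM of free RNA.

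Macrophages and monocytes did not differ in Cxcl16 beyond the threshold (log2 difference -0.15, SE 0.12, adjusted p = 0.305). That comparison called 55.2% of genes, Ccr1 and Cxcr4 among them. In mregDC, Cxcl16 lay above cDC2 by 1.07 on the log2 scale (SE 0.17, adjusted p = 5.21e-05, 6 of 6 mice), where 41% of genes were called. In cDC2 it lay below monocytes by a log2 difference of -0.42 (SE 0.14, adjusted p = 0.0199), where 38.6% of genes were called. This last call was lost with DESeq2 (adjusted p = 0.125) and without either Untreated mouse or the GA-aFuc mouse (adjusted p = 0.0505 to 0.101).

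At 2000 UMIs per cell Cxcl16 was seen in 83.9% of 56 mregDC (71.7 to 92.4%), 70.5% of macrophages (69.1 to 71.9%), 62.0% of monocytes (60.04 to 63.9%) and 3.32% of NK cells (2.14 to 4.90%). The genes most like it over the 33 sums were Ctsh (r = 0.99), Ifi207 (0.99) and Ctsz (0.99), of which Ctsh and Ctsz encode lysosomal cathepsins. Ccr1 and Cxcl16 followed each other over the same sums (r = 0.96), as did Ccr8 and Cxcr6 (0.88), while Cxcr6 and Cxcl16 had r = -0.74.

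Monocyte clusters ran from 17.95 to 836 CPM of Cxcl16, while the macrophage clusters lay between 525 and 761 CPM. The macrophage ranges here and below cover the 23 of 24 clusters with at least 20 cells, and the last held 17 cells. The low clusters were 54 (17.95 CPM), 42 (55.9), 27 (205) and 8 (379). By mouse the range was 0 to 43.1 CPM in cluster 54 and 656 to 971 CPM in cluster 22, the highest cluster. Chil3, a gene of freshly recruited Ly6C-high monocytes, stood at 1844, 808, 1309 and 723 CPM in clusters 54, 42, 27 and 8, and at 18.3 CPM in cluster 22. The macrophage gene C1qa stood at 119, 223, 147 and 361 CPM in the same 4 clusters and at 3820 CPM in cluster 22.

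Adam10 and Adam17, the proteases of CXCL16, were highest in macrophages, at 156 and 155 CPM. In the comparison of macrophages with monocytes Adam10 rose (log2 difference 0.28, SE 0.06, adjusted p = 0.000266) and Adam17 did not pass the threshold. Both lay lower in cDC2 than in monocytes, Adam17 with a log2 difference of -1.57 and Adam10 of -1.20.

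Ccr1 was highest in monocytes. Its level was 313 ± 16.9 CPM in monocytes, 163 ± 30.2 CPM in cDC2 and 133 ± 24.9 CPM in macrophages. By mouse, monocytes stood at 302 and 303 CPM (Untreated), 312 and 292 (N297A), 334 (GITR/Syn GA-aFuc) and 332 (GA-aFuc), above every value of cDC2 (114 to 205 CPM) and macrophages (95.8 to 162 CPM). The order of cDC2 and macrophages held in 5 of 6 mice and their ranges overlapped. Ccr1 was lower in macrophages than in monocytes by a log2 difference of -1.38 (SE 0.08, adjusted p = 1.95e-16) and lower in cDC2 than in monocytes by -0.98 (SE 0.12, adjusted p = 6.83e-09). It was also lower in mregDC than in cDC2 (log2 difference -2.76, SE 0.42, adjusted p = 3.90e-05). At 2000 UMIs it was seen in 42.5% of monocytes (40.5 to 44.4%), 20.2% of macrophages (19.0 to 21.5%), 19.1% of 199 cDC2 (13.9 to 25.3%) and 1.43% of CD8 T cells (0.765 to 2.44%). CD8 T cells lay 0.74 above NK cells in Ccr1 on the log2 scale (SE 0.29, adjusted p = 0.0534), a difference that passed the threshold with DESeq2 (adjusted p = 0.0371), limma-voom (0.032), no filter on low counts (0.0363) and without either N297A mouse (0.0371 and 0.0401). Both levels, 11.5 CPM in CD8 T cells and 6.65 CPM in NK cells, lay below the 120 CPM of free RNA. C1qa stood at 178 and 123 CPM in the same 2 types, and the part of macrophage RNA in the difference was not tested. In pDC 0 of 21 cells had a Ccr1 UMI, which limits the share of cells with a UMI, not of cells expressing the gene, to 16.1%.

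Monocyte clusters spanned 116 CPM (cluster 42) to 415 CPM (cluster 27) of Ccr1, and macrophage clusters 43.1 CPM (cluster 15) to 200 CPM (cluster 28). The genes most like Ccr1 over the sums were Picalm (r = 0.98), Nlrp3 (0.98), the sensor of the inflammasome, and Slc15a3 (0.97).

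In Tregs, cells with a Ccr1 UMI also held more macrophage RNA. The Treg level was 71.8 and 96.5 CPM in the Untreated mice, 109 and 96.1 CPM in the N297A mice and 0 in the 2 other mice, which held 3 Tregs each. Over the 4 mice with at least 10 Tregs, Ccr1 lay above CD8 T cells by 2.91 on the log2 scale (SE 0.42, adjusted p = 8.76e-06) and Cxcl16 by 2.09 (SE 0.46, adjusted p = 0.00527), while Cxcr6 lay lower (log2 difference -0.83, SE 0.26, adjusted p = 0.0233). That comparison called 20.4% of genes. The 15 Tregs with a Ccr1 UMI held C1qa at 2803 CPM, C1qb at 3279 CPM and Cd3d at 508 CPM, and the 59 Tregs without one held C1qa at 166 CPM, C1qb at 142 CPM and Cd3d at 1083 CPM. The 5 macrophage markers C1qa, C1qb, Apoe, Adgre1 and Mrc1 summed to 413 to 6135 CPM by mouse in Tregs and 567 to 1081 CPM in CD8 T cells, with none of them at 0 on average. On average Tregs held Ccr1 at 46.8% and Cxcl16 at 16.7% of the macrophage level, beside 11.8% for C1qa, 14.2% for C1qb, 8.79% for Apoe, 5.81% for Adgre1 and 6.99% for Mrc1. The part of macrophage RNA in the Treg level of Ccr1 was not tested. Cells with at least 10 C1qa or at least 3 Siglech UMIs were then left out, a choice made after seeing these values: 7 of 74 Tregs, 16 of 907 CD8 cells, 8 of 723 NK cells and 3 of 97 CD4 cells. With them out, 0 of the 6 genes were called between Tregs and CD8 T cells. Cxcl16 then differed by 0.17 on the log2 scale (adjusted p = 0.897), Cxcr6 by -0.57 (adjusted p = 0.106), and Ccr1 fell below the count filter. The Treg level of Ccr1 was 30.7 CPM in the cells left, and that of Cxcl16 30.9 CPM. The Cxcr6 call was also lost with DESeq2 (adjusted p = 0.0858) and without the second Untreated or the second N297A mouse (adjusted p = 0.0541 and 0.227). The Cxcl16 call was lost without the second N297A mouse (adjusted p = 0.0512). It was also lost without the cell with the most Cxcl16 UMIs in each sum (adjusted p = 0.0656), a setting that tends to lower types with few cells.

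Cxcr4 was read in every cell type, with less contrast than the other receptors. Its level was 137 ± 13.0 CPM in monocytes, 122 ± 30.7 CPM in CD4 T cells, 79.9 ± 38.6 CPM in mregDC, 76.95 ± 18.9 CPM in macrophages, 69.4 ± 23.7 CPM in NK cells, 63.7 ± 34.9 CPM in Tregs, 61.7 ± 59.5 CPM in pDC, 61.0 ± 20.7 CPM in cDC2, 35.8 ± 11.7 CPM in CD8 T cells and 21.0 ± 22.5 CPM in cDC1. The range over mice of each type overlapped that of its neighbour in this order. Cxcr4 was lower in macrophages than in monocytes (log2 difference -0.98, SE 0.15, adjusted p = 1.33e-05) and lower in cDC2 than in monocytes (-1.26, SE 0.28, adjusted p = 0.000946). CD8 T cells held less of it than NK cells (-1.02, SE 0.27, adjusted p = 0.00498) and than macrophages (-1.21, SE 0.22, adjusted p = 4.08e-05). CD4 T cells held more than CD8 T cells (1.76, SE 0.25, adjusted p = 5.99e-06, 6 of 6 mice), at 84.3 to 174 CPM by mouse against 27.5 to 59.1 CPM. Of the 2 CD4 clusters, 35 stood at 162 CPM and 59 at 70.9 CPM of Cxcr4, and cluster 35 is the one that held Trdc.

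At 2000 UMIs Cxcr4 was seen in 24.3% of monocytes (22.6 to 26.0%), 19 of 95 CD4 T cells (12.5 to 29.5%), 16.5% of NK cells (13.8 to 19.4%), 14.5% of macrophages (13.4 to 15.6%) and 7.17% of CD8 T cells (5.57 to 9.04%). Free RNA stood at 70.9 CPM, near the level of several types. Among macrophages, cluster 9 held the most Cxcr4 (177 CPM) and cluster 61 the least (12.7 CPM). Cluster 9 also had the lowest C1qa of those 23 macrophage clusters, at 2243 CPM. The genes most like Cxcr4 were Rap2c (r = 0.84), Mgat4a (0.81) and Wsb1 (0.79), a looser likeness than for the genes above.

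Ccr9 was a pDC gene, and 331 of its 475 UMIs lay in 21 pDC, every one of which held at least 1. Its level there was 1378 and 1026 CPM in the Untreated mice, 1929 and 1783 in the N297A mice, 1700 in the GA-aFuc mouse and 1353 in the GITR/Syn GA-aFuc mouse, from 1 to 7 pDC each. The mean was 1528 ± 335 CPM, against at most 5.36 CPM in any other type, and the ranges did not overlap. At 2000 UMIs it was seen in 90.5% of pDC (69.6 to 98.8%) and 0.0979% of macrophages (0.0267 to 0.251%). Too few pDC were present for a test on their counts alone. The exact sign-flip test over 6 mice gave p = 0.03125 for pDC against the next type, the smallest it can give, and 0.1875 after adjustment over 54 pairs of neighbours. No pDC sum entered the likeness over 33 sums, so the genes most like Ccr9 there, Ppp1r35 (r = 0.57), St3gal2 (0.56) and Pigx (0.56), rest on single counts.

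In CD8 T cells, 45 Ccr9 UMIs were counted, 39 of them in 1 cell of the GA-aFuc mouse. That cell, of cluster 16 with 18315 UMIs, also held 21 UMIs of Siglech, 27 of Bst2 and 19 of Tcf4, the pDC markers, beside 17 of Cd3d, 5 of Cd3e, 4 of Cd8a and 6 of Cd8b1. pDC themselves held 637 CPM of Cd8b1 and 0 CPM of Cd3d and Cd3e. The other 5 mice held 0 to 2 Ccr9 UMIs in their CD8 T cells.

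Ccr8 was sparse, with 110 UMIs in 83 of 8716 cells. CD8 T cells held 77 of them, CD4 T cells 15, NK cells 10, Tregs 4 and macrophages 4, while monocytes and dendritic cells held 0. Its level was 26.7 ± 21.6 CPM in CD4 T cells, 9.65 ± 7.41 CPM in CD8 T cells and 6.45 ± 10.4 CPM in Tregs, and these ranges overlapped. In Tregs, 3 of 74 cells held a Ccr8 UMI, 2 of them with Foxp3, while 46 of the 74 held Foxp3. At 2000 UMIs the share was 1.98% in CD8 T cells (1.18 to 3.12%), 4.21% in CD4 T cells (1.16 to 10.4%), 1.37% in Tregs (0.0347 to 7.40%) and 0% in monocytes, where the upper limit of 0.149% holds for cells with a UMI at this depth. A difference between these T cell types was not detectable at this depth. Within CD8 T cells Ccr8 stood at 13.9 CPM in cluster 38 and 1.11 CPM in cluster 44. The genes most like it over the sums were Prkar1a (r = 0.90), Bdh1 (0.90) and 1700097N02Rik (0.89), for a gene that was itself under the 10 CPM set for that list. The human copies of the 6 genes, on the human part of the reference, had 0 UMIs each.

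**Figure D3:**
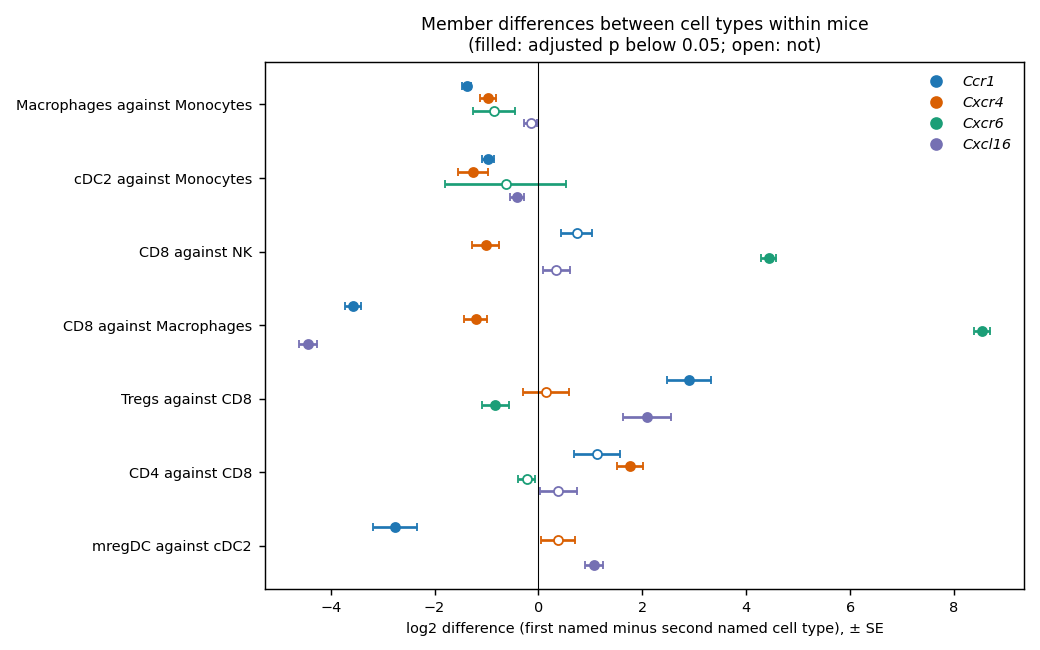
Log2 difference between 2 cell types within mice for each gene that passed the count filter, with its SE (x axis) for each of 7 comparisons (y axis). Filled points had an adjusted p below 0.05. Cxcr6 stands farthest to the right, at 8.54 in CD8 T cells against macrophages, and the Cxcl16 value is lowest in that comparison, at -4.43.

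Each type's place in the order of a gene's levels was compared with its neighbour's. Of 54 neighbouring pairs, none had an adjusted p under 0.05 in the exact two-sided sign-flip test over 6 mice, whose smallest unadjusted p is 0.03125. Ranges did not overlap for Ccr1 between monocytes and cDC2, for Ccr9 between pDC and CD8 T cells, for Cxcr6 between Tregs and NK cells and between macrophages and cDC1 (0 UMIs), and for Cxcl16 between mregDC and monocytes and between cDC1 and Tregs.

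The 18 other chemokine receptors gave a wider view of the same cells. Their highest levels were Ccr7, the receptor that leads cells to lymph nodes, at 2300 CPM in mregDC, Xcr1 at 469 CPM in cDC1, Cx3cr1 at 467 CPM in macrophages and Ccr2 at 431 CPM in monocytes. Between macrophages and monocytes 7 of the 18 were tested, of which 2 rose and 2 fell in macrophages, with a median log2 difference of -0.17 beside -0.03 over all genes tested, of which 55.2% were called. These were Xcr1 (8.12 CPM against 0.63 CPM), Cx3cr1 (log2 difference 1.00), Ccr2 (-2.83) and Ccrl2 (-1.35). Between CD8 T cells and NK cells 3 of 7 were higher and 2 lower in CD8 T cells (median 0.95 beside 0.01 over all genes, of which 30.6% were called), among them Ccr7 (3.09) and Ccr2 (-1.96). Between Tregs and CD8 T cells 4 of 5 were higher in Tregs and 0 lower, where 20.4% of all genes were called, among them Ccr2 by 3.04, Ccrl2 by 2.37 and Cxcr3 by 1.16. Tregs carried the macrophage RNA described above. Macrophages held Ccr2 at 65.8 CPM, Ccrl2 at 104 CPM and Cxcr3 at 3.94 CPM, against 393, 114 and 43.7 CPM in Tregs. Whether macrophage RNA entered these differences was not tested.

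**Figure D4:**
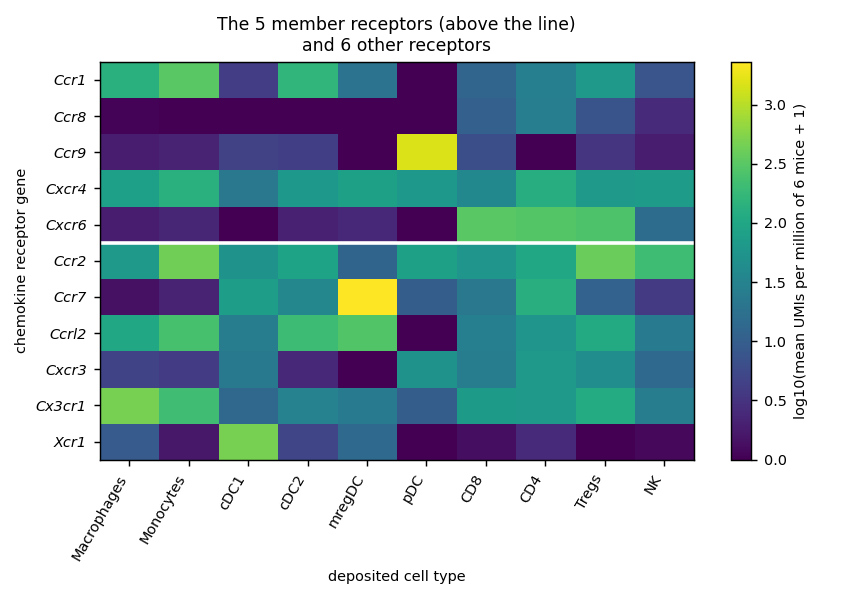
Mean level over 6 mice, as log10 of CPM plus 1 (colour), of the 5 chemokine receptors studied here (above the white line) and 6 others named in the text (below), in each deposited cell type (columns). The brightest fields are Ccr7 in mregDC (2300 CPM) and Ccr9 in pDC (1528 CPM).

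The ligands of the receptors were read in part by the same tumours. Ccl1, a ligand of CCR8, stood at 319 CPM in CD4 T cells and 95.3 CPM in CD8 T cells, and Ccl8, the other ligand of CCR8, at 93.5 CPM in macrophages. Ccl5 was at 4714 CPM in mregDC and 2248 CPM in CD8 T cells, Ccl4 at 1238 CPM in CD4 T cells and Mif at 845 CPM in CD8 T cells. Free RNA held Mif at 1137 CPM, above its mean level in every type. It held Ccl5 at 940 CPM, Ccl4 at 629 CPM, Ccl8 at 84.8 CPM and Ccl1 at 24.6 CPM. Cxcl12, the ligand of CXCR4, was at most 1.71 CPM in these CD45+ cells, and Ccl25, the ligand of CCR9, stood at 11.5 to 29.9 CPM in every type. Of 11 ligands, 10 were tested between macrophages and monocytes, where 2 rose and 4 fell in macrophages (median log2 difference -0.14, with 55.2% of all genes called), Ccl8 by 2.83 and Ccl7 by 1.29 upward. Between CD8 T cells and NK cells 3 were higher and 1 lower in CD8 T cells (median 0.40, with 30.6% of all genes called), with Ccl3 at 3.61 and Ccl1 at 1.70. In cDC2 against monocytes 8 of 10 were lower and 0 higher (median -1.39 beside -0.10 over all genes, of which 38.6% were called), with Ccl7 at -3.84 and Ccl9 at -2.10.

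Adhesion, egress and retention genes differed in both directions. Of the 15, 14 were tested between CD8 T cells and NK cells, where 5 were higher and 5 lower in CD8 T cells (median -0.06), beside 30.6% of all genes called in either direction. Itga4, an integrin chain, was lower by a log2 difference of -1.70 and S1pr1 higher by 1.10. Between macrophages and monocytes 2 rose and 9 fell in macrophages (median -0.68, with 55.2% of all genes called), with Itga1 at a log2 difference of -2.91 and Itgb7 at -1.30. Between Tregs and CD8 T cells 3 of 13 were higher and 3 lower (median -0.0028, with 20.4% of all genes called), with Itgae, an integrin chain that binds E-cadherin, at 4.21 and Itga1 at -2.98. Of 14 genes of receptor signalling and desensitization, 1 rose and 6 fell in macrophages against monocytes (median -0.13, beside the same 55.2%), and 3 were higher and 2 lower in CD8 T cells against NK cells (median 0.08, beside the same 30.6%). The largest CD8 differences were Grk3 (2.40, at 1.54 CPM against 0.22 CPM) and Rgs16 (2.02), the gene of a regulator of G protein signalling, which stood at 333 CPM in CD8 T cells and 81.8 CPM in NK cells.

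Few genes were called for antibody treatment in any type, and with 1 or 2 mice per treatment a gene without a call may still have changed. Across the 5 types and 4 contrasts, 1 of 92 tests of the 6 genes passed the threshold, with 16 at an unadjusted p under 0.05. Among all genes tested, the share at such a p was lowest for N297A in macrophages (450 of 13526) and highest for Fc-enhanced in monocytes (846 of 11422). DESeq2 and limma-voom called 0 of the 92, with 5 and 15 at an unadjusted p under 0.05. The contrasts share the Untreated mice, and both Fc-enhanced antibodies were given to 1 mouse each, so the spread comes from the Untreated and N297A mice. Of all genes tested in CD8 T cells, 0.0205% were called for N297A against Untreated, 0.0922% for GA-aFuc, 0.154% for the GITR/Syn antibody and 0.0717% for Fc-enhanced against the other mice. The same shares were 0%, 0.0148%, 0.0148% and 0.0148% in macrophages, 0.00876%, 0.193%, 0.21% and 0.184% in monocytes, 0.0108%, 0.0651%, 0.0434% and 0.0651% in NK cells, and 0.302%, 0.0503%, 0% and 0% in all dendritic cells.

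The call was Ccr9 in CD8 T cells, GA-aFuc against Untreated, with a log2 change of 4.14 (SE 0.76, adjusted p = 0.011). All 39 Ccr9 UMIs of that mouse's CD8 T cells were those of the cell with pDC markers. Without the cell with most UMIs of the gene in each sum, Ccr9 was no longer tested there and 0 of the 6 genes were called. DESeq2 gave an adjusted p of 1.00 and limma-voom one of 0.170, and without the first or the second Untreated mouse it was 0.632 or 0.336. Without the GITR/Syn GA-aFuc mouse the Fc-enhanced contrast, then the GA-aFuc mouse alone, was called for Ccr9 (log2 change 5.12, adjusted p = 3.67e-05). In dendritic cells Ccr9 stood at 31.0 and 64.2 CPM in the Untreated mice, 46.6 and 239 in the N297A mice, 78.4 in the GA-aFuc mouse and 74.2 in the GITR/Syn GA-aFuc mouse, and did not pass the threshold. The second N297A mouse had 7 pDC among its dendritic cells and the first had 2. With the first left out, the N297A contrast was called (log2 change 2.31, adjusted p = 0.000198).

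Cxcr4 in macrophages was 63.4 and 50.4 CPM in the Untreated mice, 93.8 and 72.5 CPM in the N297A mice, 101 CPM in the GA-aFuc mouse and 80.3 CPM in the GITR/Syn GA-aFuc mouse. All 4 treated mice lay above both Untreated mice, as did 9.98% of macrophage genes with at least 30 UMIs. Ccr8 in macrophages (4 UMIs) and Ccr9 in monocytes (28 UMIs) had the same order, both under the 30 UMIs set for such shares. In monocytes the share was 6.44%. The log2 change against Untreated was 0.54 for N297A (SE 0.15, adjusted p = 0.997), 0.80 for GA-aFuc (SE 0.18, adjusted p = 0.845) and 0.49 for GITR/Syn GA-aFuc (SE 0.18, adjusted p = 0.907), none past the threshold. The GA-aFuc contrast passed it with no filter on low counts (adjusted p = 0.0181) and without the first or the second N297A mouse (adjusted p = 0.0146 and 0.0137). The N297A contrast passed it without the second N297A mouse (log2 change 0.71, adjusted p = 0.017), and Fc-enhanced against the others without the first (log2 change 0.47, adjusted p = 0.0414). In each of the 23 macrophage clusters with at least 20 cells the mean of the Untreated mice lay below the mean of the other 4. In 11 of them the Untreated mean lay below every other mouse. The clusters come from the same 6 mice and add no replicates, and the share of all genes with this pattern was not counted. Weighing clusters equally, the 6 mice stood at 65.8, 51.6, 94.0, 72.4, 104 and 80.0 CPM in the same order. Monocytes did not show this order, with 137 and 137 CPM in the Untreated mice, 134 and 154 in the N297A mice, 115 in the GA-aFuc mouse and 146 in the GITR/Syn GA-aFuc mouse.

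Ccr8 in CD8 T cells was 13.2 and 23.2 CPM in the Untreated mice (24 and 20 UMIs), 6.73 and 5.64 CPM in the N297A mice (14 and 6 UMIs), 5.66 CPM in the GA-aFuc mouse (8 UMIs) and 3.49 CPM in the GITR/Syn GA-aFuc mouse (5 UMIs). All 4 treated mice lay below both Untreated mice, as they did for Ccr1 and Cxcl16 in CD8 T cells, for 3 of the 6 genes beside 8.6% of CD8 genes with at least 30 UMIs. The log2 change in Ccr8 was -1.38 for N297A (SE 0.44, adjusted p = 0.798), -1.55 for GA-aFuc (SE 0.57, adjusted p = 1.00) and -2.24 for GITR/Syn GA-aFuc (SE 0.64, adjusted p = 0.282), and none passed. The same values for Ccr1, 19.3 and 16.2 CPM against 5.64 to 11.1 CPM, and for Cxcl16, 36.3 and 42.9 CPM against 19.7 to 33.8 CPM, lay below free RNA. Within CD8 cluster 16, the largest, Ccr8 was 20.7 and 31.2 CPM in the Untreated mice and 3.78 to 16.9 CPM in the others. In 2 of the 5 CD8 clusters the Untreated mean of Ccr8 lay below the mean of the other 4 mice. Weighing clusters equally, Ccr8 stood at 10.4 and 19.0 CPM in the Untreated mice and 4.72 to 6.65 CPM in the others. The order was then lost for Ccr1, with the second Untreated mouse at 12.4 CPM and the first N297A mouse at 13.7 CPM. For Cxcl16 the second N297A mouse, at 46.0 CPM, then lay above both Untreated mice, at 41.4 and 41.3 CPM.

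**Figure D5:**
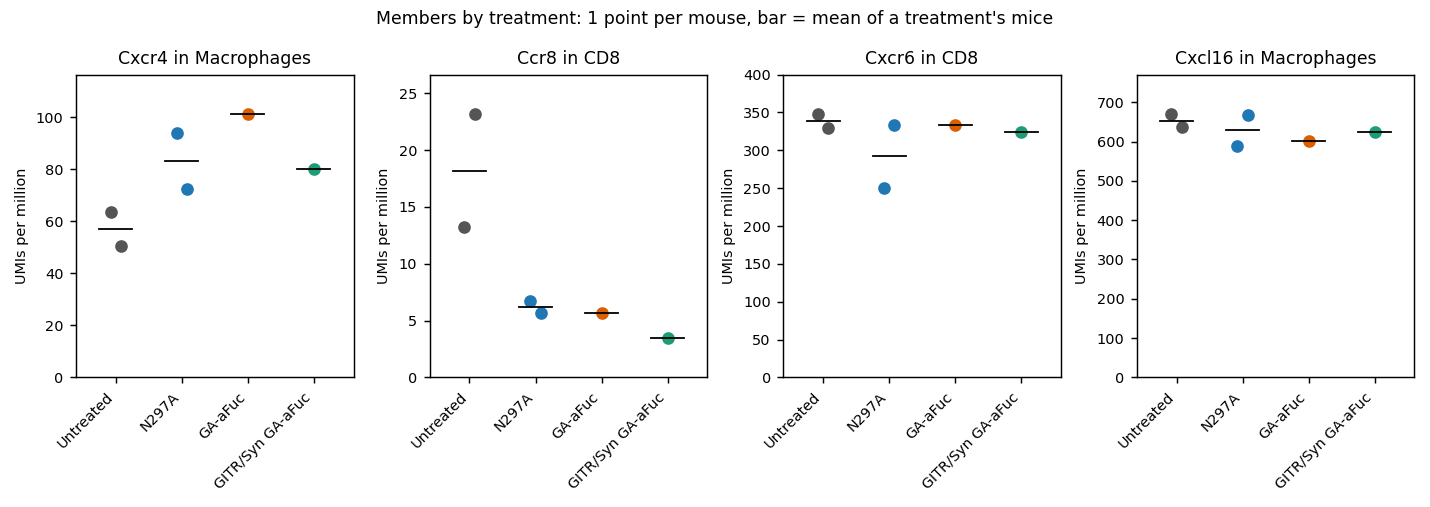
Level of Cxcr4 in macrophages, Ccr8 and Cxcr6 in CD8 T cells and Cxcl16 in macrophages (CPM) by treatment. Each point is 1 mouse and the bar is the mean of a treatment's mice. For Cxcr4 the Untreated mice stand at 50.4 and 63.4 CPM and the others at 72.5 to 101 CPM, while Cxcl16 lies between 588 and 670 CPM in all 6 mice.

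Cxcr6 in CD8 T cells and Cxcl16 in macrophages and monocytes differed less. The log2 change of Cxcr6 in CD8 T cells was -0.20 for N297A (SE 0.14), -0.0011 for GA-aFuc (SE 0.17) and -0.05 for GITR/Syn GA-aFuc (SE 0.17). Cxcl16 in macrophages was 670 and 636 CPM (Untreated), 588 and 668 (N297A), 625 (GITR/Syn GA-aFuc) and 601 (GA-aFuc), and its log2 changes were -0.06 (SE 0.11), -0.15 (SE 0.14) and -0.07 (SE 0.14). Ccr1 in monocytes had log2 changes of 0.02 (SE 0.09), 0.12 (SE 0.11) and 0.15 (SE 0.11). Treg levels were not compared between treatments, since the 2 mice given Fc-enhanced antibodies held 3 Tregs each against 11 to 24 in the others.

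Whether a treatment change differed between 2 types was tested for macrophages against monocytes and CD8 T cells against NK cells. None of the 6 genes was called in edgeR's interaction test (24 tests, 3 at an unadjusted p under 0.05), in DESeq2 (1) or in limma-voom (4). Among all genes, edgeR gave such a p least often for N297A between macrophages and monocytes (269 of 12862). It did so most often for Fc-enhanced between CD8 T cells and NK cells (704 of 12862). Over all genes the shares called were 0% in both N297A tests, and for Fc-enhanced 0.00777% between macrophages and monocytes and 0% between CD8 T cells and NK cells. The change in macrophage Cxcr4 was not shown to differ from that in monocytes.

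Among the genes of the other lists, 9 of 888 tests of treatment were called. Ccl5 in NK cells stood at 2260 and 2041 CPM in the Untreated mice, 2869 and 2029 in the N297A mice, 829 in the GA-aFuc mouse and 750 in the GITR/Syn GA-aFuc mouse. It fell against Untreated in the GA-aFuc mouse (log2 change -1.32, SE 0.17, adjusted p = 0.0199) and the GITR/Syn GA-aFuc mouse (-1.48, SE 0.18, adjusted p = 0.0263). Ccr2 in monocytes stood at 521 and 506 CPM in the Untreated mice, 438 and 452 in the N297A mice, 295 in the GA-aFuc mouse and 372 in the GITR/Syn GA-aFuc mouse, and fell in the GA-aFuc mouse (-0.81, SE 0.11, adjusted p = 0.0212). Ccr7 fell in CD8 T cells of the GITR/Syn GA-aFuc mouse (-2.42, adjusted p = 0.0462) and in dendritic cells of the N297A mice (-0.94, adjusted p = 0.0439). In those dendritic cells Ccl5 also fell (-1.70, adjusted p = 0.00397). The mregDC, which carry both genes, numbered 7 and 6 in the N297A mice and 12 and 13 in the Untreated mice. Within mregDC, Ccr7 stood at 2704 and 2396 CPM in the N297A mice and 1659 and 2477 CPM in the Untreated mice. Ccl7 rose in NK cells of the GA-aFuc mouse (2.18, adjusted p = 0.0176), from 13.7 and 16.1 CPM in the Untreated mice to 64.6 CPM. Those NK values of Ccl7 all lay below the 364 CPM of free RNA, and macrophages held Ccl7 at 516 CPM. The lists of adhesion genes, of signalling genes and of Cxcl16 proteases had 0 called by edgeR.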

How the data were processed

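CD45+ tumour cells of 6 hashtagged mice were sequenced as 1 10x Genomics 3' library. The deposited matrix holds UMI counts per gene and barcode, made by the authors with Cell Ranger 9.0.0 on a joint GRCh38 and GRCm39 reference, per the submitters' processing notes. The deposited cell table gave clusters, cell types and treatments. The sources used here do not say whether doublets were removed, and no doublet caller was run. A mouse is a hashtag, and the labels give neither cages nor litters.

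Of 19210 table entries, the 8767 with at least 1000 mouse UMIs were kept. Hashtag counts disagreed with the tabled treatment for 33 entries and 18 repeated a barcode. Removing both left 8716 cells and 16479710 to 19339165 mouse UMIs per mouse. For each mouse and type, UMIs were added over cells and tested with edgeR 4.0.16 (R 4.3.3; TMM, filterByExpr, robust quasi-likelihood fit, Benjamini-Hochberg over all genes tested, threshold 0.05). Treatment fits used types with at least 20 cells in each mouse, and cell type fits had the mouse as a block. Alternatives were DESeq2 1.42.0, limma-voom (3.58.1), other scaling, filters and cell sets, and leaving out each mouse. The fits were tested on simulated data. Leaving out lymphocytes with macrophage or pDC RNA was chosen after seeing the data.

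The 6 genes and all lists were chosen with earlier results of these data known. From each list, up to 4 called genes with the largest change and up to 4 with the highest level were named, and the 3 genes most like each of the 6 by Pearson correlation of log2(CPM + 1). Some results for genes of these lists are not reported here.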

Additional observations from a re-analysis of the deposited data

Results flagged for a closer look

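In 5 of 50 combinations of gene and cell type, 1 of the 6 mice stood apart from the others by Dixon's criterion. It takes the gap to the nearest mouse over the whole range and flags about 1 in 20 where values are normally distributed. Sparse counts need not follow that rate, and 1 UMI beside values of 0 is always flagged. Ccr9 in CD8 T cells stood at 27.6 CPM in the GA-aFuc mouse, next to 2.32 CPM, through 1 cell that also held pDC markers. Cxcr4 stood at 63.7 CPM in cDC1 of the first Untreated mouse, from 6 cells, with the next mouse at 20.5 CPM. In CD8 T cells of the second Untreated mouse Cxcr4 stood at 59.1 CPM, next to 34.7 CPM. Cxcr6 in CD8 T cells was lowest in the first N297A mouse, at 251 CPM, next to 324 CPM. A Cxcr6 value of 8.42 CPM in mregDC of the first Untreated mouse was 1 UMI, with 0 in the other mice.

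Of the barcodes with at least 1000 mouse UMIs, 4198 were outside the authors' annotation, 1315 of them with a second hashtag above 20% of hashtag counts. They held each of the 6 genes at a lower level than the annotated cells: Cxcl16 at 272 CPM against 535, Ccr1 at 83.3 against 153, Cxcr4 at 47.2 against 85.7, Cxcr6 at 16.9 against 29.3, Ccr9 at 2.12 against 4.31 and Ccr8 at 0.744 against 0.999.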

How the results depend on the processing

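Of 1892 log2 values of the 6 genes under an alternative, 109 changed sign, 71 of them with 1 mouse left out, and none of the 109 was called in either fit. A further 1751 kept their sign and their side of the threshold, 16 passed it only under the alternative and 16 lost it. Those of values printed, plotted or compared above follow. Cxcr6 for GA-aFuc in CD8 T cells was 0.0019 with no filter on low counts, 0.0113 without the top cell, 0.0085 without the 5% of cells with most UMIs and 0.0065 with the higher UMI minimum per cell. Cxcr6 in cDC2 against monocytes was 0.55 with limma-voom. Cxcr4 in Tregs against CD8 T cells was -0.11 with no filter and -0.39 without the top cell, and in mregDC against cDC2 -0.62 without the top cell. Cxcl16 in CD4 against CD8 T cells was -0.42 without the top cell and -0.0587 without the 5% of cells with most UMIs. Leaving out the top cell tends to take a larger share of UMIs from types with few cells, which lowers them in a comparison. With 1 mouse left out in turn, log2 values ran from -0.0326 to 0.0393 for that Cxcr6 change, -0.16 to 0.0345 for Cxcl16 and N297A in macrophages, -0.0215 to 0.0656 for Ccr1 and N297A in monocytes, -0.0524 to 2.31 for Ccr9 and N297A in dendritic cells, and -0.36 to 0.44 for Cxcr4 in Tregs against CD8 T cells. Counts of called genes stayed within 1.5 times the main count in 405 cases and moved further in 19. For GA-aFuc in CD8 T cells the count was 1, and 0 with DESeq2, limma-voom, without the top cell of each gene or without lymphocytes rich in C1qa or Siglech. For GA-aFuc in macrophages it was 0, and 1 with no filter on low counts. Between Tregs and CD8 T cells it was 3, and 0 without the C1qa-rich or Siglech-rich lymphocytes. Between CD8 T cells and NK cells it was 2, and 5 with no filter, and between CD4 and CD8 T cells 1, and 2 with limma-voom or without the top cells. Leaving out 1 mouse in turn gave 0 to 1 calls for N297A, GA-aFuc and Fc-enhanced in macrophages, for GA-aFuc and Fc-enhanced in CD8 T cells and for N297A in dendritic cells, 1 to 3 for Tregs and 1 to 2 for CD4 T cells against CD8 T cells. The lone GA-aFuc or GITR/Syn mouse could not be left out of its own comparison. Without the top cell in each sum Ccr9 in pDC was 654 CPM and Cxcl16 in mregDC 730.1 CPM. As a mean over cells Cxcr4 in monocytes was 151 CPM, and 10 neighbouring pairs had separate ranges, against 6. Thinned to 1000 UMIs, then unthinned, the share was 25.6% and 83.3% for Ccr1 in monocytes, 1.03% and 11.3% for Ccr8 in CD4 T cells, 52.4% and 100.0% for Ccr9 in pDC, 12.8% and 62.3% for Cxcr4 in monocytes, 28.7% and 83.0% for Cxcr6 in CD8 T cells, and 59.6% and 98.2% for Cxcl16 in mregDC. Where no construction of the alternative shows it, the cause was not tested. No paired analysis was possible because mouse numbers link no mice across treatments. Ccr8 (110 UMIs) and the small pDC, Treg and cDC1 groups set the limits.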
